A study of Homo sapiens with 2 samples.

Results

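HOX genes of the 4 clusters HOXA, HOXB, HOXC and HOXD and the Iroquois genes IRX1 to IRX6 encode homeodomain transcription factors. They were examined in 2 stable lines made from MDA-MB-231, human breast cancer cells classed as hormone receptor negative and mesenchymal. The first line, MB231/EV, was infected with a virus carrying an empty control vector. The second, MB231/miR-203, was infected with a virus that overexpresses the microRNA miR-203. The labels do not say whether either line was a clone or a pool of infected cells. Both were grown in the same serum-supplemented medium, and each was measured on 1 Affymetrix array. A member was any gene with a probe set annotated to exactly 1 symbol of the form HOXA, HOXB, HOXC or HOXD with a number, or IRX with 1 digit. This gave 33 members out of 19775 named genes, 28 of them HOX and 5 IRX genes, measured by 50 probe sets. RefSeq holds 45 genes of these names, and the other 12 were not analysed here. These 12 were HOXD3, IRX6 and 10 of the 11 HOXA genes, so the HOXA cluster was represented by HOXA2 alone. The HOXB and HOXC clusters were complete, with 10 and 9 members.

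HOX genes lie in clusters whose gene order follows the order in which the genes are used along the body axis, from anterior, low-numbered genes to posterior, high-numbered ones. Genes with the same number in different clusters are paralogues. HOX proteins bind DNA together with PBX and MEIS cofactors, and Polycomb and trithorax proteins keep the clusters silent or active from one cell generation to the next. Adult mammary epithelium and breast cancer cells keep expressing part of this set. IRX proteins carry an atypical homeodomain of the same TALE class as PBX and MEIS, and their genes form a pair of clusters, with IRX4, IRX2 and IRX1 on chromosome 5 and IRX3, IRX5 and IRX6 on chromosome 16.

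MicroRNAs recognise target mRNAs mainly through the seed, bases 2 to 8 of the mature strand. The HOX clusters themselves hold microRNA genes, so the mature sequences are shown together with that of the overexpressed one, to compare their seeds. They are taken from RefSeq (GRCh38.p14), 5′ to 3′, with the seed in capitals.
hsa-miR-203a-3p: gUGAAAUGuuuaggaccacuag
hsa-miR-10a-5p: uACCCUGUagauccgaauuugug
hsa-miR-196a-5p: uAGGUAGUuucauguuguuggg
hsa-miR-196b-5p: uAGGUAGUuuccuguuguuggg
hsa-miR-615-3p: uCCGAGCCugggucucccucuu
The 2 miR-196 strands share the seed AGGUAGU, and none of the 4 HOX-cluster microRNAs shown has the seed of miR-203a-3p, UGAAAUG. Mature microRNAs were not measured on these arrays. One probe set was annotated to the gene MIR10A, which lies in the HOXB cluster within the RefSeq extent of HOXB3. It read 5.73 on the empty-vector array and 5.37 on the miR-203 array, a log2 difference of -0.37.

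The values are log2 expression values after RMA, a method that puts both arrays on 1 distribution and gives 1 value per probe set. A difference is always the miR-203 value minus the empty-vector value. Each line had 1 array, so there was no replicate error and no test, and what set the arrays apart beside miR-203 (culture, extraction, labelling, scanning) cannot be told apart from it. The arrays correlated with r = 0.996 over 54675 probe sets. Each gene was given its brightest probe set, and genes were split at 5.37, the median of all probe set means. This level is not a detection limit. Of all named genes 13015 lay at or above it. As a description of spread, each difference was set beside the middle 95% of differences of the 500 named genes nearest in mean level. All 10 markers of mesenchymal breast cancer lines lay above the level, with values up to 13.90 and 13.89 for vimentin (VIM). E-cadherin (CDH1) and the progesterone receptor (PGR) lay under it on both arrays, while the oestrogen receptor (ESR1), which this cell line is known to lack, read 6.27 and 6.30. Values a little above the level thus need not mean expression. Markers of other cells that lay above the level were 8 of 10 for luminal breast cells, 4 of 8 for fibroblasts, 1 of 5 for blood cells and 3 of 6 for endothelial cells. Summed on the linear scale, the luminal markers went from 6145 to 5541, the fibroblast markers from 652 to 578, the blood markers from 148 to 144 and the endothelial markers from 409 to 320 between the empty-vector and the miR-203 array. Members of each of these lists differed in direction. Luminal genes at or above the level ran from FOXA1 at -0.26 to ERBB3 at 0.37, with 5 below 0 and 3 above. KRT18, the brightest of them, went from 12.03 to 11.85 (-0.18). Blood genes ran from MS4A1 at -0.27 to PTPRC at 0.34, both under the level. In the endothelial list TIE1 went from 7.22 to 5.67 (-1.55), PECAM1 was at -0.11, and TEK, CDH5, VWF and CLDN5 were above 0, from 0.17 to 0.28. In the fibroblast list THY1 went from 7.80 to 6.96 (-0.84), PDGFRB was at 0.35 and COL1A1 at -0.0039. The COL1A1 probe sets at or above the level ran from there to 0.79. The part of these levels in the differences below was not tested.

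Of the 33 members, 18 lay at or above the level: 7 HOXB, 6 HOXC, 3 HOXD and 2 IRX genes. Their differences had a median of -0.18, against 0.013 over all genes at or above the level. In bulk RNA a lower value can mean fewer cells with the transcript or less of it per cell, which cannot be told apart. There were 12 members below 0, 5 above and 1 at exactly 0, or 12 of 18 below 0 where 45.8% of all such genes were. HOXB7 was the 1 member of the 18 that was 1.5-fold or more lower, against 0.968% of all genes. No member was 1.5-fold or more higher (0 of 18, against 0.653%), and none reached 2-fold lower or higher (0 of 18, against 0.261% and 0.0768%). At 18 genes, shares under 1% correspond to less than 1 gene, so the counts of 0 and 1 are near the background. The 15 members under the level had a median of -0.23, with 12 below 0 (45.4% of all genes under the level were), 2 above and 1 at 0. Among them 4 were 1.5-fold or more lower, HOXB8, HOXD10, IRX1 and IRX2, against 1.46% of genes under the level, and IRX1 alone was 2-fold or more lower, against 0.133%. With values under the level raised to it, IRX1 stayed past 1.5-fold at -0.63, while HOXB8 and HOXD10 were at 0 and IRX2 at -0.26. None of the 15 was 1.5-fold or more higher (0 of 15, against 1.02%), and none 2-fold or more higher (0 of 15, against 0.0888%). Over all 33 members, 24 differences were below 0 and 7 above, where 45.7% of all named genes were below 0. With no split by level, 5 of the 33 were 1.5-fold or more lower, against 1.14% of all named genes, and 1 was 2-fold or more lower, against 0.217%. In the other direction the counts were 0 of 33 at 1.5-fold, against 0.779%, and 0 of 33 at 2-fold, against 0.0809%.

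**Figure D1:**
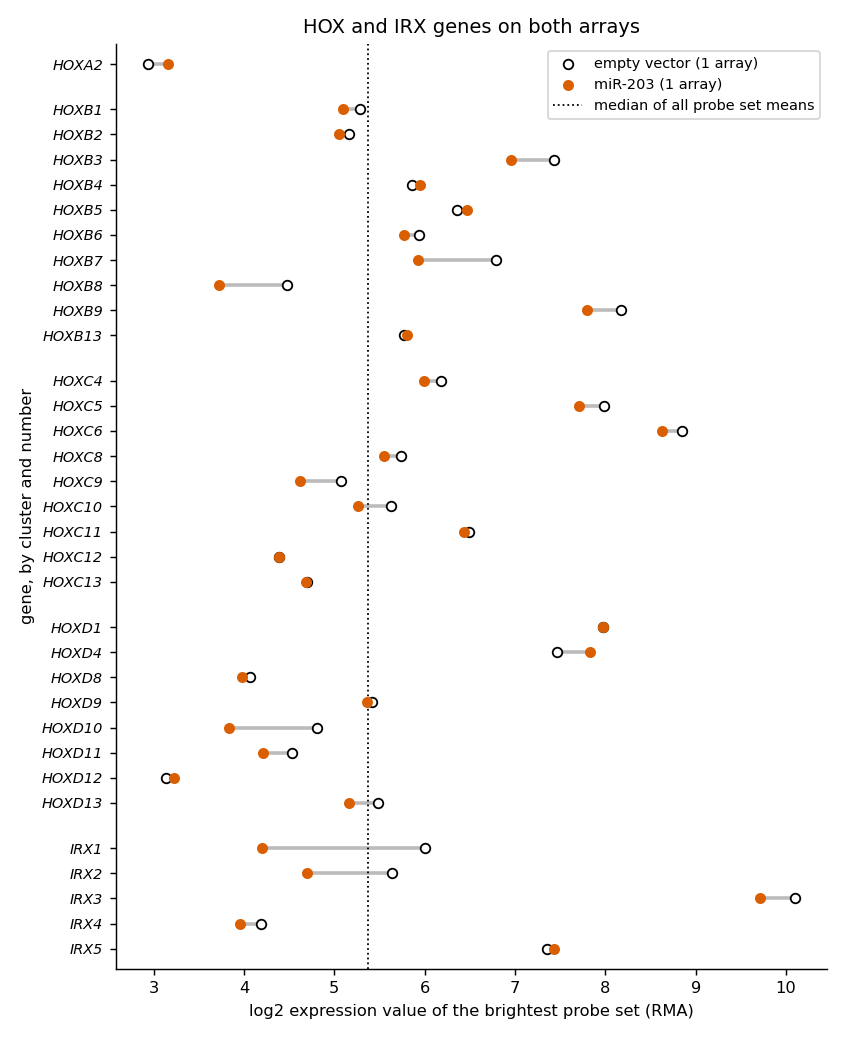
Log2 expression value (x axis, RMA) of the brightest probe set of each of the 33 members (y axis, by cluster and number) on the empty-vector array (open circles) and the miR-203 array (orange), 1 array each; the dotted line is the median of all probe set means, 5.37. The longest bars belong to IRX1, HOXD10, IRX2, HOXB7 and HOXB8, all with the miR-203 value to the left, and HOXD4 is the longest bar in the other direction.

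The members nearest to the level show how the split falls. HOXD9, with a mean of 5.39, and HOXC10, with 5.44, lay just inside, while HOXD13, with 5.32, HOXB1, with 5.19, and IRX2, with 5.17, lay just outside. For 5 members the level ran between both arrays: HOXC10, HOXD9, HOXD13, IRX1 and IRX2 were each above it with the empty vector and below it with miR-203.

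The IRX genes held the largest difference of the set. IRX1, an Iroquois factor of lung, kidney and limb development, read 6.01 with the empty vector and 4.20 with miR-203, a difference of -1.80. Genes of like level spanned -0.53 to 0.48. With the miR-203 value raised to the level, IRX1 was lower by 0.63 on the log2 scale, or 1.55-fold by that convention. Both IRX1 values lay below the 6.27 and 6.30 of ESR1, which this cell line is known to lack. The value with the empty vector thus need not mean expression. It had 1 probe set, so no other measurement of the gene stood beside it.

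IRX2, its neighbour on chromosome 5, read 5.63 and 4.70 by its brighter probe set, a difference of -0.94, outside the -0.53 to 0.47 spanned by genes of like level. Its other probe set, almost as bright, read 4.99 and 5.26, a difference of 0.27. The direction for IRX2 therefore rests on which probe set is read, and the choice between them turned on means of 5.17 and 5.12. IRX4, the remaining gene of that cluster and a factor of the heart ventricle, read 4.19 and 3.95, under the level on both arrays. By the brightest probe sets all 3 genes of the chromosome 5 cluster were lower in the miR-203 line, by 1 probe set each for IRX1 and IRX4.

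The 2 chromosome 16 genes named here lay above the level on both arrays. IRX3, known as a gene controlled by distant enhancers within the neighbouring FTO gene, read 10.10 and 9.71, a difference of -0.39. This lay outside the -0.31 to 0.42 spanned by genes of like level, although it was less than 1.5-fold. IRX5, the neighbour of IRX3, read 7.35 and 7.43, with a difference of 0.084 inside the range of -0.39 to 0.41. Each had 1 probe set. The long non-coding RNA CRNDE, which starts next to IRX5, read 10.37 and 10.52, and FTO 9.92 and 9.87. On chromosome 5, ADAMTS16, a protease gene on the other side of IRX1, had the same value of 6.47 on both arrays. Equal values occurred in 6.40% of all probe sets. The ADAMTS16 value was close to the 6.27 and 6.30 of ESR1 and need not mean expression. Whether a difference like that of IRX1 extended to this neighbour therefore cannot be read from it.

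Because IRX1 and IRX2 had the lowest differences of the IRX genes, the sequences around their start sites are shown, from 250 bases before to 50 bases after the start, as RefSeq gives them (GRCh38.p14). The IRX1 sequence is chr5:3595582-3595881 on the plus strand and the IRX2 sequence chr5:2751628-2751927 on the minus strand. Capitals mark the dinucleotide CG, which reads the same on both strands and is the site of DNA methylation.
IRX1: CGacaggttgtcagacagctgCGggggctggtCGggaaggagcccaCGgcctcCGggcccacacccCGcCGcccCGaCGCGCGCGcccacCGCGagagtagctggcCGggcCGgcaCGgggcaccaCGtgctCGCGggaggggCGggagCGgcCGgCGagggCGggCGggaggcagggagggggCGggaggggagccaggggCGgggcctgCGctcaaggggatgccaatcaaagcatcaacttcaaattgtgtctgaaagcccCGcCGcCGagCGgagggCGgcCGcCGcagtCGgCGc
IRX2: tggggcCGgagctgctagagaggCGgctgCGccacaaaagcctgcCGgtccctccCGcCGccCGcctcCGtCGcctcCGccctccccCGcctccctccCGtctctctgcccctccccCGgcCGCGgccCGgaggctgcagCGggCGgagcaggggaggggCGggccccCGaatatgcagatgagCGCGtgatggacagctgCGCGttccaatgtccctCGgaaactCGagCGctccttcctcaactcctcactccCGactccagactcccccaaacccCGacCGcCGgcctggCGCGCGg
The IRX1 window held 38 CG and the IRX2 window 34. Of the 35116 promoter windows of this length in the table, 9.91% held at least 38 and 15.6% at least 34, and the median was 14. Neither window held TATAAA on either strand, which 11.5% of all windows did. Methylation was not measured, and these counts describe the sequence only. Of the 33 members, 14 had a window in the table. Among them HOXD1, with a difference of 0, held 36 CG, and HOXD8, at -0.086, held 34. The 3 windows of IRX4, at -0.23, held 36, 47 and 44. Windows of the remaining members held 4 to 27. Windows this rich in CG were thus not particular to IRX1 and IRX2.

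HOXB genes were mixed in direction, with the lowest differences in HOXB7 and HOXB8. The 7 members at or above the level had a median of -0.16, with 4 below 0 and 3 above. HOXB7, which has been linked to growth and invasion of breast cancer cells, read 6.79 with the empty vector and 5.93 with miR-203, a difference of -0.86 (1.81-fold lower), outside the -0.57 to 0.49 spanned by genes of like level. Its other probe sets read 6.28 and 5.69 (-0.59), and 5.52 and 5.41 (-0.11). All 3 HOXB7 probe sets were thus lower in the miR-203 line, by unequal amounts, and the dimmest, of the _x_at type that can match related transcripts, was nearly level. All 3 are of a type (_s_at or _x_at) that can match more than 1 transcript. Apart from the 6.79 of the brightest with the empty vector, these values lay near or below the 6.27 and 6.30 of ESR1. They need not mean expression.

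HOXB9, a posterior gene with a role in mammary development, read 8.17 and 7.79 by its brightest probe set, a difference of -0.38 inside the -0.47 to 0.40 spanned by genes of like level. Its second probe set, of the _x_at type, read 6.04 and 5.43, a difference of -0.62. Both were lower in the miR-203 line. HOXB8, between HOXB7 and HOXB9, lay under the level on both arrays at 4.48 and 3.73, a difference of -0.75. Its other probe set read 3.06 and 3.35, a difference of 0.30 in the opposite direction, so the sign for HOXB8 depended on the probe set.

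HOXB3, a hindbrain patterning gene, read 7.43 and 6.95 by its brightest probe set, a difference of -0.47, and 5.64 and 6.06 by the other, a difference of 0.41. Both probe sets lay above the level and they pointed in opposite directions. In RefSeq the longest HOXB3 transcripts also span HOXB4, so the values of these neighbours may share transcripts. HOXB4, a regulator of blood stem cell growth, read 5.86 and 5.95. HOXB5, a gene of gut and neural crest development, read 6.36 and 6.47. HOXB6 read 5.94 and 5.77, with a dimmer probe set at 0.14 in the opposite direction. HOXB13, the most posterior gene of the cluster and a prostate lineage factor, read 5.77 and 5.80. These 4 genes differed by 0.089, 0.12, -0.16 and 0.026, all inside the ranges of like-level genes. The anterior genes HOXB1 and HOXB2 lay under the level, with differences of -0.19 and -0.12, and the second probe set of HOXB1 gave 0.26.

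HOXC genes were the most uniform of the clusters in direction. All 6 members at or above the level were lower in the miR-203 line, where 45.8% of all such genes were below 0. They had a median of -0.21 and a range of -0.37 to -0.054. Of all 9 members 8 were below 0 and 1 was at 0, where 45.7% of all named genes were below 0. None was 1.5-fold or more lower (0 of 9, against 1.14%). All 9 lay inside the ranges of like-level genes, and each gene had 1 probe set. HOXC6, a gene of mammary and thoracic development, read 8.85 and 8.62 (-0.23). HOXC5 read 7.98 and 7.71 (-0.28), HOXC4 6.18 and 5.99 (-0.19), and HOXC8, a thoracic patterning gene, 5.74 and 5.55 (-0.19). In these 4 the miR-203 value was lower by a similar small amount. On both arrays HOXC4, HOXC8 and HOXC10 read below the 6.27 and 6.30 of ESR1, so their values need not mean expression.

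The posterior genes of the cluster ran from the largest HOXC differences to none. HOXC9, under the level, read 5.07 and 4.62 (-0.45), and HOXC10, a hindlimb gene, 5.63 and 5.26 (-0.37). HOXC11 read 6.49 and 6.43 (-0.054). HOXC12 read 4.39 on both arrays and HOXC13, a regulator of hair and nail keratins, 4.69 on both, a difference of -0.0036. HOXC9 and HOXC10 were thus the lowest pair in the cluster, and HOXC11 to HOXC13 were nearly level.

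HOXC4 and HOXC5 may not be independent measurements, because RefSeq lists 1 start window for both. Whether these probe sets read transcripts from that start was not tested. The sequence, chr12:54016638-54016937 on the plus strand (GRCh38.p14), is shown as the start that these genes share. Capitals mark CG.
HOXC4 and HOXC5: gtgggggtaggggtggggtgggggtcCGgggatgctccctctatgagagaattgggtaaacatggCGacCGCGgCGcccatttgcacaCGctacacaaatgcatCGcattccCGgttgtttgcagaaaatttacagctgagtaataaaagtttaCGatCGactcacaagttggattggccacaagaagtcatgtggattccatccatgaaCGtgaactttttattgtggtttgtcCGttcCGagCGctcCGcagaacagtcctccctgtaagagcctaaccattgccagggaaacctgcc
This window held 15 CG, near the median of 14, and no TATAAA on either strand.

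HOXD genes held the highest difference of all members. HOXD4, a gene of hindbrain and neck patterning, read 7.46 with the empty vector and 7.83 with miR-203, a difference of 0.37 (1.29-fold higher) inside the -0.41 to 0.44 spanned by genes of like level. Its second probe set read 6.91 and 7.12, a difference of 0.21, so both probe sets were higher in the miR-203 line. Another 3 probe sets were annotated to HOXD4, HOXD3 and LOC401021 together, so they were not counted among the member probe sets. They gave differences of 0.14 (5.95 and 6.09), 0.25 (3.63 and 3.87) and 0 (5.18 on both arrays). Only the first of them lay above the level. HAGLR, a long non-coding RNA whose RefSeq extent overlaps the start of HOXD1, read 7.95 and 8.15, also in the higher direction.

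HOXD1, at the anterior end, had the same value of 7.98 on both arrays. Equal values occurred in 6.40% of all probe sets. HOXD9 read 5.42 and 5.37, with both of its probe sets slightly lower, at -0.052 and -0.15. The other 5 HOXD members lay under the level. HOXD10, known as a target of miR-10b in breast cancer cells, read 4.81 and 3.84, a difference of -0.97 (1.96-fold lower) outside the -0.58 to 0.45 spanned by genes of like level. Its dimmer probe sets gave 0.15 and -0.41, so that 2 of its 3 probe sets were lower. HOXD11, a forelimb gene, was at -0.32, and HOXD13, a digit gene, at -0.32 by its brightest and at -0.10 and 0.19 by its other probe sets. HOXD8 was at -0.086 and HOXD12 at 0.082, both inside the ranges of like-level genes. HOXA2, a gene of the hindbrain and ear and the only HOXA member, read 2.94 and 3.16, far under the level, with a difference of 0.22.

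**Figure D2:**
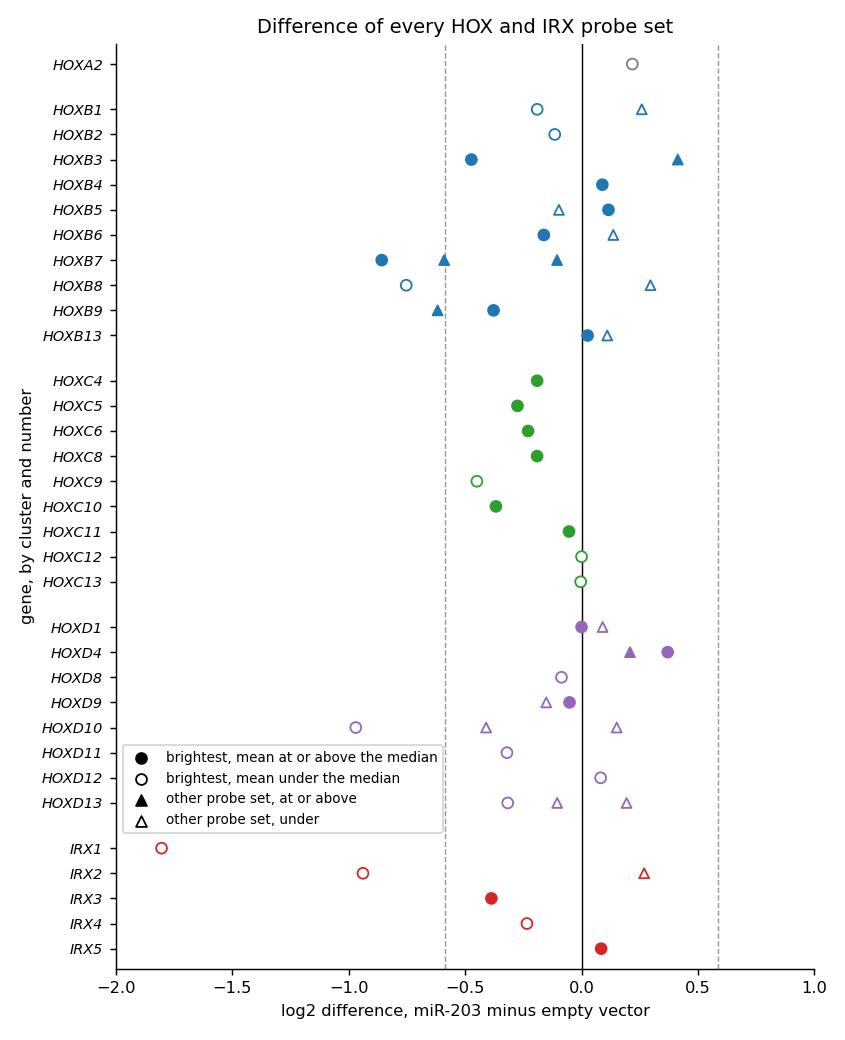
Log2 difference, miR-203 minus empty vector (x axis), of all 50 probe sets of the 33 members (y axis, by cluster and number); circles are the brightest probe set of a gene, triangles its other probe sets, filled where the mean of both arrays is at or above the median of all probe sets, and dashed lines mark 1.5-fold. All HOXC points lie at or left of 0, while 8 genes, HOXB1, HOXB3, HOXB5, HOXB6, HOXB8, HOXD10, HOXD13 and IRX2, have points on both sides.

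Probe sets of 1 gene often differed in sign. Of the 14 members with several probe sets, 5 had the same sign in all of them, HOXB7, HOXB9, HOXB13, HOXD4 and HOXD9, a share of 35.7% against 38.1% of all genes with several probe sets. Among probe sets at or above the level, 3 of the 4 members with several had 1 sign, HOXB7, HOXB9 and HOXD4, against 53.1% of such genes. The exception was HOXB3. Over all 50 member probe sets 31 were below 0, 17 above and 2 at 0. Over the 23 at or above the level 15 were below 0, 7 above and 1 at 0.

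Read by paralogue number in place of cluster, the brightest probe sets of the genes numbered 8 to 11 were lower in every cluster that had a named gene. HOXB8, HOXC8 and HOXD8 ran from -0.75 to -0.086, and HOXB9, HOXC9 and HOXD9 from -0.45 to -0.052. HOXC10 and HOXD10 were at -0.37 and -0.97, and HOXC11 and HOXD11 at -0.054 and -0.32. Genes numbered 6 were lower in both clusters by their brightest probe sets, HOXB6 at -0.16 and HOXC6 at -0.23, while the dimmer probe set of HOXB6 was at 0.14. By the brightest probe sets, 5 of the 11 paralogue groups with several named genes were below 0 throughout and none was above 0 throughout (0 of 11). Taken singly, 24 of the 33 members and 45.7% of all named genes were below 0. No such share was computed for groups of other genes. The numbers 8 to 11 were picked out from these same values, so they describe the set and do not test a pattern by position. In group 4 the paralogues were split, with HOXD4 and HOXB4 above 0 and HOXC4 below. Of the 10 genes numbered 8 to 11, 5 lay under the level, and HOXB8 and HOXD10 each had a dimmer probe set above 0.

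Split along the body axis, the 2 anterior HOX genes at or above the level (numbers 1 to 3), HOXB3 and HOXD1, were at -0.47 and 0. The 9 central genes (4 to 8) had a median of -0.19 and a range of -0.86 to 0.37, with 6 below 0. The 5 posterior genes (9 to 13) had a median of -0.054 and a range of -0.38 to 0.026, with 4 below 0. Of all genes at or above the level 45.8% were below 0. Central genes thus held both the lowest and the highest HOX difference at or above the level, HOXB7 and HOXD4.

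**Figure D3:**
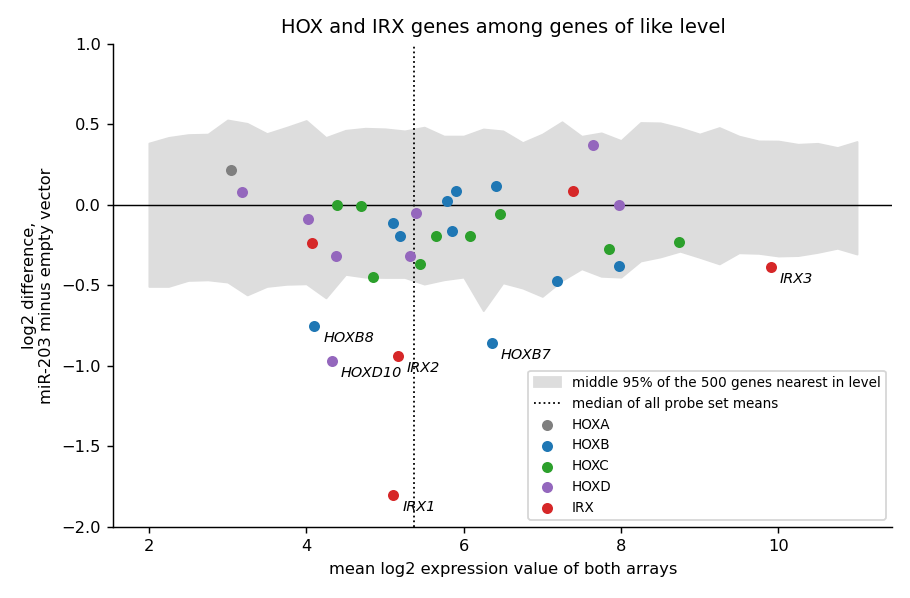
Log2 difference, miR-203 minus empty vector (y axis), against the mean log2 value of both arrays (x axis) for the 33 members, coloured by cluster; the grey band is the middle 95% of the 500 named genes nearest in level and the dotted line the median of all probe set means. The 6 labelled members, IRX1, IRX2, IRX3, HOXB7, HOXB8 and HOXD10, lie below the band, and the other 27 lie inside their ranges.

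Beside genes of like level, 27 of the 33 members lay inside the middle 95% of differences and 6 outside, all 6 on the lower side. By construction about 5% of all genes lie outside their range. Of the 6, HOXB7 and IRX3 were at or above the level, and HOXB8, HOXD10, IRX1 and IRX2 under it. HOXB7 was the member at or above the level with the lowest difference and with several probe sets in 1 direction.

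Genes that work with HOX proteins or control their clusters were taken from 7 lists. Of all genes at or above the level, 45.8% were below 0, 0.968% were 1.5-fold or more lower and 0.653% higher. At the sizes of these lists, shares under 1% correspond to less than 1 gene, so counts of 0 are near the background. HOX cofactors and other TALE genes had 10 genes at or above the level with a median of 0.025, 4 of them below 0 and none past 1.5-fold (0 lower, 0 higher). Within this list MEIS2 was the lowest, from 7.96 to 7.48 (-0.48, outside the -0.41 to 0.42 spanned by genes of like level). MEIS1 was the highest, from 5.60 to 6.04 (0.440, just outside its range of -0.473 to 0.436). Both are cofactors that raise the DNA binding of HOX and PBX proteins. Their differences were of like size in opposite directions, each by 1 probe set at or above the level.

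Polycomb genes, which keep HOX clusters silent, had a median of -0.039 over 28 genes, with 17 below 0 and none past 1.5-fold (0 lower, 0 higher). They ran from PCGF2, a subunit of a Polycomb repressive complex, at -0.30 to JARID2, a partner of the H3K27 methyltransferase complex, at 0.32. PCGF2 had 4 probe sets at or above the level, from -0.30 to 0.023, and JARID2 had 2 such probe sets, at 0.30 and 0.32. Trithorax, MLL and H3K27 demethylase genes, which keep the clusters active, had a median of -0.025 over 25 genes, with 14 below 0 and none past 1.5-fold (0 lower, 0 higher). They ran from the demethylase KDM6A at -0.39 to MLLT10, a partner of the DOT1L methyltransferase, at 0.30, where the 6 probe sets of MLLT10 at or above the level gave -0.20 to 0.30. Genes on both sides of this control were centred near 0.

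Retinoic acid and CDX genes, upstream regulators of HOX clusters in the embryo, had a median of -0.020 over 13 genes, with 7 below 0 and none past 1.5-fold (0 lower, 0 higher). The retinoic acid receptor RARA was the lowest at -0.38, with 4 probe sets at or above the level from there to 0.24, and ALDH1A3, an enzyme that makes retinoic acid, the highest at 0.48, outside the -0.48 to 0.39 spanned by genes of like level. A dimmer probe set of ALDH1A3 gave -0.26.

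Non-coding RNAs of the clusters were mostly dim. Of 12 named here 3 lay at or above the level, all 3 above 0 (median 0.15), where 45.8% of all such genes were below 0. The others, under the level, ran from HOXD-AS2 at -0.44 to HOXC-AS3 at 0.19. Of the 3, HOTTIP, at the posterior end of HOXA, was the lowest at 0.016, with a dimmer probe set at -0.10, and HAGLR the highest at 0.19. HOTAIR, the HOXC antisense RNA linked to breast cancer metastasis, read 2.04 and 1.93, far under the level. Protein-coding and other genes flanking the clusters had a median of 0.032 over 27 genes, with 9 below 0, 17 above and none past 1.5-fold (0 lower, 0 higher). They ran from LPCAT2, near the chromosome 16 IRX genes, at -0.19 to TAX1BP1, near HOXA, at 0.43. Near HOXC, where the members were all at or below 0, the listed genes went both ways. CBX5 was at -0.16, CALCOCO1 at -0.045 and NFE2, under the level, at -0.38. SMUG1 was at 0.03, HNRNPA1 at 0.04, COPZ1 at 0.04 and ZNF385A at 0.12.

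Other homeobox genes, from the NKX, MSX, LHX, POU and further families, had 45 genes at or above the level, with a median of -0.046 and 28 below 0. Here 2 of 45 were 1.5-fold or more lower (0.968% of all genes), 1 of them past 2-fold (0.261%), and none was higher by that much (0 of 45). NKX2-1, a lung and thyroid factor, read 6.83 and 5.73 (-1.10, 2.14-fold lower), with a second probe set at -0.17. MSX2, a factor of bone and mammary development, read 7.10 and 6.41 (-0.69), with a second probe set at or above the level at -0.62 and a dimmer one at 0.17. The HOX and IRX median of -0.18 over 18 genes lay below the medians of these 7 lists, which ran from -0.046 to 0.15. The highest of these, that of the non-coding RNAs, was over 3 genes.

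**Figure D4:**
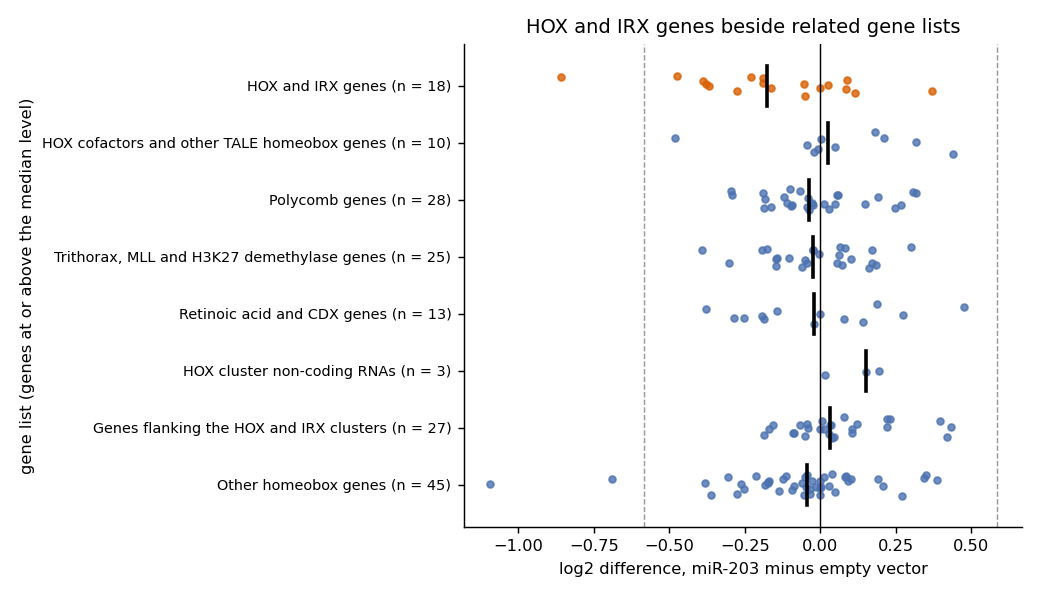
Log2 difference, miR-203 minus empty vector (x axis), of the genes at or above the median level in each list (y axis, n genes each; vertical position within a list is only for legibility); black bars are medians and dashed lines mark 1.5-fold. The HOX and IRX genes (orange) have a median of -0.18, and the other lists have medians from -0.046 to 0.15.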

How the data were processed

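Total RNA of 2 cell lines, 1 array each, was measured on Affymetrix arrays. The deposited log2 values per probe set were made by the authors with RMA, per the submitters' processing notes. Its version is not stated there. That the scale is log2 was read from the values (1.37 to 14.23). A shift of all mRNAs one way would be removed by this method. Of 54675 probe sets, 62 were controls; the platform annotation gave 1 symbol for 41091, several for 1801 and did not list 11721. The members and lists were chosen with earlier results of these data known. Named were all members at or above the median of probe set means; under it, those past 2-fold or the highest and lowest of each cluster; HOXB7, HOXB13, HOXD10 and IRX1; and, of each list, up to 5 genes past 1.5-fold or its highest and lowest. The differences of other members, and single neighbouring genes, were added after their values were seen. HOXA5 was also to be named and was not analysed here. With 1 array per group no test was made, and the number of arrays limits the precision. Python 3.11.15, pandas 2.3.3 and statsmodels 0.14.6 (loess) were used. The 2-fold counts were tested on simulated data with planted differences larger than 2-fold. All probe sets of a gene were given the same planted difference, so the choice of probe set was not tested. The 1.5-fold counts, the counts below 0 and the ranges of like-level genes were not tested in this way.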

Additional observations from a re-analysis of the deposited data

How the results depend on the processing

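No paired analysis was possible because there was 1 array per group, and no replicate could be left out. The count of members 1.5-fold or more lower, 1 at the main setting, was 5 with no filter on level, 3 with the filter on the higher of both arrays, 0 with the filter at the 75th percentile, 0 without _x_at and _s_at probe sets (HOXB7 has no other kind) and 2 with the second brightest probe set of each gene, an alternative chosen after seeing the data. The count 2-fold or more lower, 0, was 1 with no filter and 1 with the filter on the higher value. The median of the IRX members, -0.15, was -0.39 and -0.66 under these same settings. The members that the filter on the higher value added, HOXD13, IRX1 and IRX2, passed it only through their empty-vector values. Members admitted in this way are lower on the miR-203 array by construction. The counts of 3 and 1 and the median of -0.66 rest on them and are no further support for a lower direction. The HOXB median, -0.16, was -0.38 at the 75th percentile and -0.030 with the median over probe sets. The HOXD median, 0, was 0.19 at the 75th percentile, 0.16 without _x_at and _s_at probe sets and 0.21 with the second brightest. Without _x_at and _s_at probe sets the sign turned for HOXB8 (0.30), HOXB6 (0.14), MSX2 (0.17) and RARA (0.16). With the second brightest it turned for 7 members, HOXB8 (0.30), HOXD10 (0.15), IRX2 (0.27), HOXB1 (0.26), HOXB3 (0.41), HOXB5 (-0.097) and HOXB6 (0.14), and for ALDH1A3 (-0.26) and HOTTIP (-0.10). With values raised to the level HOXB8 and HOXD10 were at 0 and IRX2 at -0.26, no longer past 1.5-fold. The HOXC median and the median over all members moved by no more than 0.10, the typical spread between probe sets of a gene, under the alternatives run. Loess removal and centring changed no count of members past 1.5-fold or 2-fold.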
